A study of Rattus norvegicus with 36 samples.

Results

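The L4 dorsal root ganglion lies next to the ganglion whose nerve was tied in the L5 spinal nerve ligation model, and its own spinal nerve was left unligated. The comparison described here set L4 ganglia of ligated rats against ganglia of sham-operated rats at 50 days after surgery. It used 12 of the 36 arrays of the series, chosen by their titles: 2 L4 and 2 sham arrays on each of the chip types A, B and C of the Affymetrix rat U34 set. Each side was 1 pool of total RNA. Pools came from 30 rats on the 9 of these 12 arrays whose labels give a number, and strain, sex and age were not stated. The sham pool held L4 and L5 ganglia together, so ordinary differences between the spinal levels are part of every value below. The 2 arrays of a pool carried the same RNA, and the series' own design text states that pooling left no biological replication. At 50 days there was therefore no test between the conditions and no p-value, and the spread given with a value covers the arrays alone.

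Dorsal root ganglia hold the cell bodies of the sensory neurons that carry touch, position, itch, temperature and pain from the body to the spinal cord, wrapped in satellite glia and mixed with Schwann cells, vessels and macrophages. After a nerve is cut or tied, the injured neurons are known to switch on growth and stress genes such as Atf3 and Gap43 and the neuropeptides Vip, Npy and Gal, and to lower many nociceptor channels. In the L5 ligation model the L4 ganglion keeps fibres that run beside degenerating L5 axons in a shared peripheral nerve, and its neurons are studied as the uninjured neighbours that still connect the skin to the spinal cord.

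A small share of probe sets stood apart between L4 and sham ganglia at 50 days. Differences were taken on the scale log2(signal + pseudocount), where 1 is a doubling for a bright probe set. The median over the 15721 tested probe sets was 0.00, a value that the scaling of every array to 1 trimmed mean holds near 0. That median is therefore no measure of likeness. A probe set was called when the pools were at least 2-fold apart and both L4 arrays lay on the same side of both sham arrays. Folds between pools were taken with the pseudocount added. By that rule 158 probe sets (1.01%) were higher and 138 (0.878%) lower in L4, together 296 (1.88%). At the smaller threshold of 1.5-fold, 571 (3.63%) were higher and 539 (3.43%) lower. The ligated L5 ganglion, read against the same sham arrays, had 917 probe sets called (5.83%).

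The spread between arrays of the same pool was nearly as large as the spread between the pools. On chip A the differences between L4 and sham had an SD of 0.413, where the disagreement between the 2 arrays of a pool alone gives 0.400. The same pair of values was 0.345 and 0.311 on chip B and 0.331 and 0.302 on chip C. For L5 against sham the values were 0.575 and 0.404 on chip A, 0.509 and 0.323 on chip B, and 0.501 and 0.358 on chip C. The 2 L4 arrays of chip A differed from each other by at least 2-fold at 10.5% of probe sets, against 4.24% on chip B and 3.13% on chip C, and chip A supplied 157 of the 296 calls.

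The calls came mostly from dim probe sets. In the dimmest of 5 equal bins of mean signal, 165 probe sets were called (5.25%), and in the following bins 79 (2.51%), 27 (0.859%), 17 (0.541%) and 8 (0.254%). The median technical SE of a difference, which is the error carried by the arrays, fell from 0.434 in the dimmest bin to 0.159 in the brightest.

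**Figure D1:**
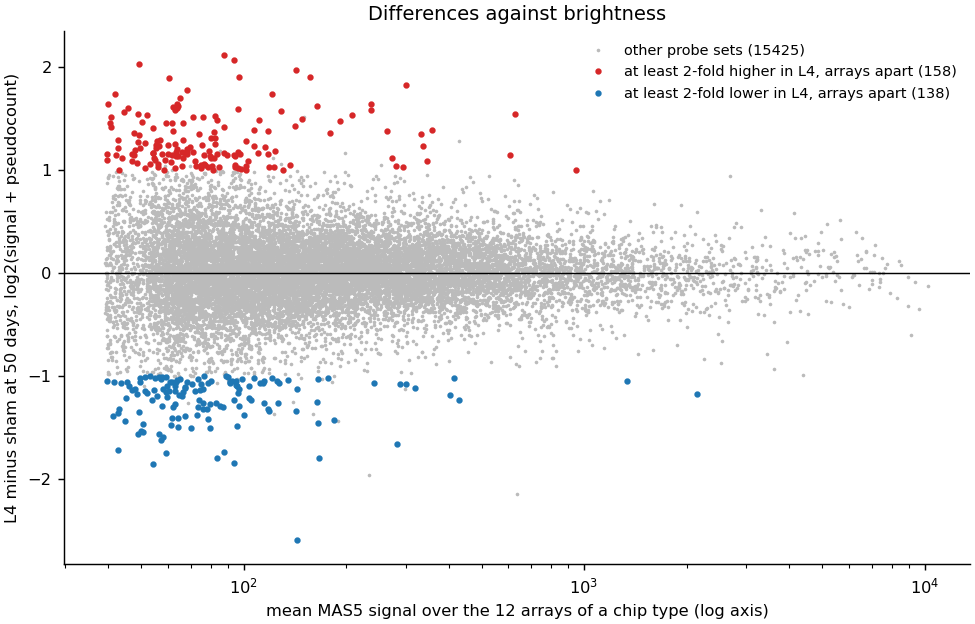
Difference between L4 and sham at 50 days (vertical axis, log2 of signal plus pseudocount) against the mean signal of each tested probe set over the 12 arrays of its chip type (horizontal log axis). Red and blue points are the 158 higher and 138 lower probe sets called in L4; most lie at the dim end, and the cloud narrows as the signal grows.

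Several genes known to respond to nerve injury read higher in L4 than in sham. Vip, which encodes vasoactive intestinal peptide, read 101 and 96.7 on the L4 arrays and 47.1 and 30.2 on the sham arrays. The L4 arrays lay above both sham arrays, and the pools were 2.05-fold apart with the pseudocount added (1.03 ± 0.21, log2 difference with technical SE). The L5 arrays stood far above the L4 and sham arrays, at 300 and 302. A second, dim Vip probe set differed by 0.22 with arrays that overlapped. Npy, the gene of neuropeptide Y, read 113 and 168 in L4 against 68.5 and 62.3 in sham, a difference of 0.95 ± 0.27, with L5 at 357 and 203. Its 4 arrays did not overlap, and the L5 arrays were above all of them. Gal, which encodes galanin, read 110 and 129 in L4 against 70.2 and 86.1 in sham, a difference of 0.55 ± 0.25, and 131 and 223 in L5.

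The transcription factor Atf3, a widely used mark of axon injury in sensory neurons, stood at 139 and 143 in L4 and 114 and 93.1 in sham, a difference of 0.41 ± 0.23. Both L4 arrays were above both sham arrays, and L5 was higher at 258 and 374. C2, a complement component outside the list of injury genes, read 94.5 and 58.7 in L4 against 39.7 and 21.5 in sham, a difference of 0.96 ± 0.37, and 157 and 197 in L5. Cacna2d1, the auxiliary calcium channel subunit that binds gabapentin, read 544 and 534 in L4 and 453 and 425 in sham, a difference of 0.29 ± 0.15, and 593 and 617 in L5. In bulk RNA such as this, a few strongly expressing cells and a small shift in many cells cannot be told apart.

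Those genes were also higher in L4 than in sham in the pools of 28 days, which share no array with the pools of 50 days. There the difference was 0.66 for Vip, 0.74 for Npy, 0.80 for Gal, 0.47 for Atf3, 0.72 for C2 and 0.78 for Cacna2d1, in each case with both L4 arrays above both sham arrays. The genes shown were chosen with results of both days known. Arg1 and Anxa1, also at least 1.5-fold higher in L4 at 50 days, differed by 1.73 and 0.02 at 28 days. The Anxa1 arrays of 28 days overlapped. One label bears on the 28-day values of chip B, which holds C2 among these genes: the first sham array of 28 days is given as 28 days by its title, used here, and as 50 days by its description. Without it the 28-day difference of C2 was 1.28. The levels themselves moved with the day, however. The sham arrays of 28 days read 98.2 and 126 for Vip, 186 and 234 for Npy, 128 and 145 for Gal, and 146 and 161 for Atf3. The L4 levels of 50 days were thus within or below the sham levels of 28 days for Vip, Npy, Gal and Atf3, and the differences hold only against the sham pool of the same day. Day, pool and array run cannot be told apart between those sets.

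**Figure D2:**
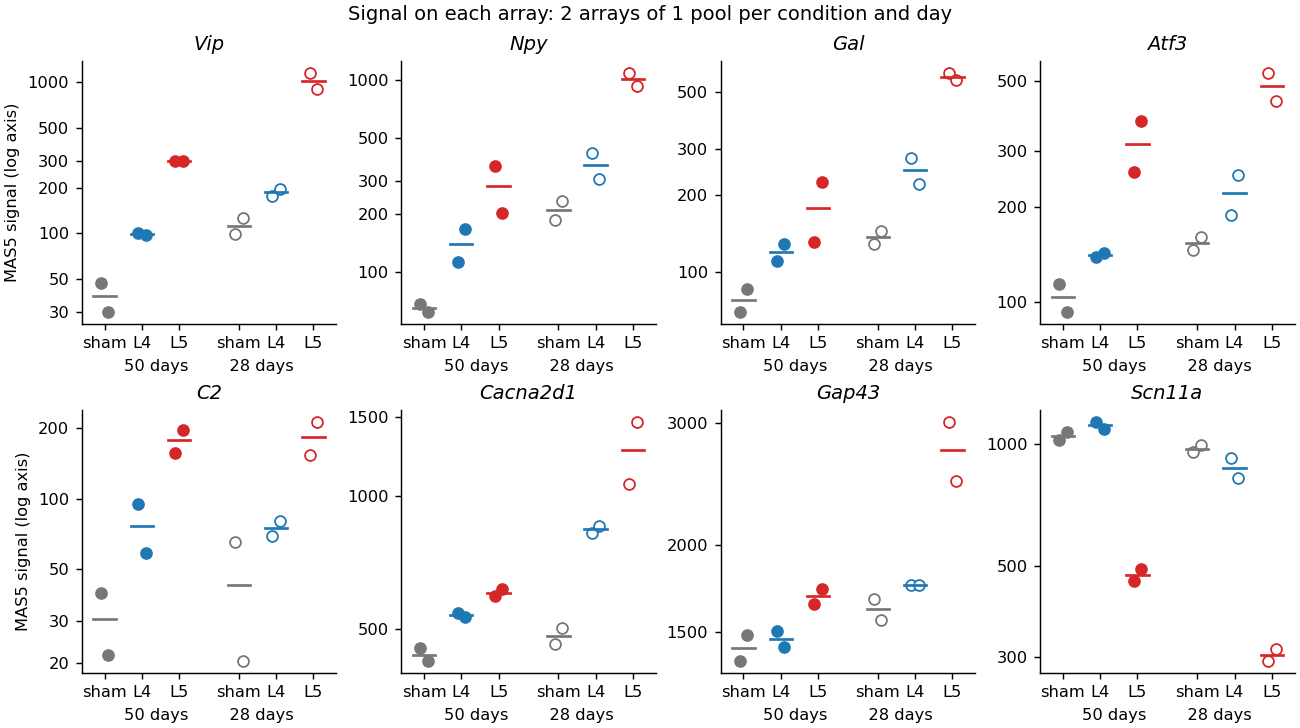
MAS5 signal (log axis) on every array for 8 genes in sham (grey), L4 (blue) and L5 (red) ganglia at 50 days (filled) and 28 days (open); points are the 2 arrays of 1 pool and bars their mean. Vip, Npy, Gal, Atf3, C2 and Cacna2d1 stand in the order sham, L4, L5 at both days by the mean, while Gap43 and Scn11a in L4 stay near sham.

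Other genes of the injury response did not share that pattern. Of 38 listed axon injury and regeneration genes, 32 were tested: 1 was called higher (Vip) and 0 lower, 4 were at least 1.5-fold higher without array overlap (Vip, Npy, Arg1 and Anxa1) and 0 lower. The list's median was 0.11, with 23 members above 0, beside -0.01 and 48.8% above 0 over all 8270 genes read by their brightest probe set. Of all genes, 0.822% were called higher, and 3.04% were at least 1.5-fold higher and 3.11% lower without overlap. Arg1, an arginase, differed by 0.75 ± 0.53 from a dim probe set, and Anxa1, the anti-inflammatory annexin, by 0.70 ± 0.25, with 1 of its 3 tested probe sets above 0. Gap43, a growth cone protein, read 1504 and 1426 in L4 against 1362 and 1483 in sham, and its arrays overlapped (0.04 ± 0.12). The differences were also small for Jun (0.01 ± 0.23), Sprr1a (-0.12 ± 0.24), Stat3 (0.12 ± 0.15) and Reg3b (-0.16 ± 0.56). Vip and Npy are in the list because of their known response, and the list was drawn up with earlier results of these arrays in view.

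The probe sets that differed most in the ligated ganglion were balanced around 0 in its neighbour. To avoid the shared sham arrays, they were taken from L5 against sham at 28 days, where 807 probe sets were called (5.13%). The 439 that were higher in L5 at 28 days had a median difference of 0.02 in L4 at 50 days, with 231 (52.6%) above 0, beside 50.1% of all tested probe sets. Of these, 33 (7.52%) were at least 1.5-fold higher in L4 without overlap, beside 3.63% of all tested probe sets, and 33 were at least 1.5-fold lower. The 368 that were lower in L5 had a median of -0.01 in L4, with 186 (50.5%) below 0, and 19 (5.16%) at least 1.5-fold lower, beside 3.43% of all, against 20 higher. For the 36 that were at least 4-fold higher in L5 the median in L4 was 0.03, with 4 (11.1%) at least 1.5-fold higher and 2 lower, and for the 11 at least 4-fold lower it was -0.08.

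Nociceptor channels and peptides of L4 were mostly near sham. Scn11a, a sodium channel of small-diameter nociceptors, read 1130 and 1087 in L4 against 1023 and 1070 in sham (0.08 ± 0.12), while the L5 arrays were at 461 and 492. Scn10a, another nociceptor sodium channel, differed by -0.12 ± 0.28 and Scn9a by -0.00 ± 0.19. The heat-gated channel Trpv1 differed by 0.17 ± 0.33 and the ATP-gated channel P2rx3 by -0.24 ± 0.20. Among pain peptides, Tac1, the substance P precursor, read 2970 and 2698 in L4 and 2595 and 2734 in sham (0.09 ± 0.13). A second, less bright Tac1 probe set was lower in L4, by -0.39 without array overlap. Calca, the calcitonin gene-related peptide gene, read 1642 and 1473 against 1121 and 1464 (0.28 ± 0.20), a small gap with arrays that do not overlap. Bdnf differed by 0.18 ± 0.51 on its brightest probe set, and its other 3, also dim, by 0.32, 0.59 and 0.77, the last of them without array overlap. Th differed by -0.31 ± 0.59 and Oprm1, the mu opioid receptor, by 0.30 ± 0.53, all from dim probe sets. Of 11 peptidergic nociceptor markers, 10 sodium channels and 8 non-peptidergic nociceptor markers tested, 0 were called, and 0 were at least 1.5-fold apart without overlap. The list medians were 0.14, 0.01 and 0.02.

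The list furthest from 0 was that of markers of large-diameter neurons, which serve touch and muscle sense. Its median was -0.30, and 15 of the 19 tested members lay below 0 and 4 above, beside 48.8% above 0 over all genes. None was called. At least 1.5-fold without overlap, 2 were lower and 0 higher, beside 3.11% and 3.04% of all genes. Asic1, the member furthest from 0, had overlapping arrays, at 24.4 and 106 in L4 against 105 and 121 in sham (-0.92 ± 0.63). Tesc, an EF-hand calcium-binding protein, read 234 and 197 in L4 against 414 and 336 in sham (-0.77 ± 0.56). Both L4 arrays were below both sham arrays, and the L5 arrays were lower still at 19.5 and 176. Ntrk3, the neurotrophin-3 receptor, read 117 and 78.5 in L4 against 143 and 184 in sham (-0.68 ± 0.54).

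The rest of that list was uneven. Spp1, or osteopontin, read 3765 and 1297 in L4 against 3571 and 4099 in sham, and the lactate dehydrogenase gene Ldhb read 2082 and 581 against 1741 and 1987. In both genes the low mean of L4 rests on its second array, and the first lay in or near the sham range. Calb2, or calretinin, read 137 and 165 against 208 and 229 (-0.50 ± 0.21), and Pvalb, or parvalbumin, overlapped at 211 and 299 against 265 and 366. The neurofilament genes were near sham: Nefl differed by -0.07 ± 0.13, Nefm by -0.04 ± 0.13 and Nefh by 0.11 ± 0.11. The list's median in L4 at 28 days was -0.13, with Tesc at -0.32 and Ntrk3 at 0.66. With 1 L4 array left out, the list's median at 50 days was -0.17 without the first and -0.14 without the second.

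Other lists of neuronal genes held few members apart. Of 27 tested G protein-coupled receptors (median -0.17), Ptger3, a prostaglandin E receptor, was called lower (-1.51 ± 0.54, a dim probe set), Adra1b and Cnr1 were among the 4 at least 1.5-fold lower, and Adra1d was the 1 at least 1.5-fold higher (0.71 ± 0.29). Among 9 calcium channel genes, Cacna1a, the pore subunit of P/Q-type channels, was the 1 called, with 125 and 51.2 in L4 against 215 and 172 in sham (-1.13 ± 0.49). Its second probe set was also lower (-0.70), and at 28 days the first differed by 0.08. Among 28 synaptic vesicle release genes (median 0.02), 2 were called higher, Syt5 and Unc13a, and 1 lower, Slc32a1. The Unc13a and Slc32a1 probe sets were dim, with mean signals of 42.8 and 48.7. Over all genes, 0.822% were called higher and 0.846% lower. At least 1.5-fold higher and lower without overlap were 3.04% and 3.11% of all genes. Medians of general neuronal markers (0.04), potassium channels (-0.01), GABA and glutamate receptors (0.02) and neurotrophic factors and receptors (-0.01) were close to that of all genes. Syn1, which coats synaptic vesicles, read 1505 and 1865 in L4 against 1306 and 1179 in sham (0.43 ± 0.17).

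Glial, macrophage and vessel cell markers had medians near 0. The medians were -0.03 for 12 satellite glia markers, 0.01 for 19 markers of myelinating Schwann cells, -0.07 for 24 macrophage markers and 0.00 for 17 vessel cell markers. The summed signal of the macrophage markers was 4051 and 4225 in L4 and 4149 and 4035 in sham, and the arrays overlapped. Among the macrophage markers Cd4, read by a dim probe set, was called higher (1.07 ± 0.62). C1qa and Aif1 were at least 1.5-fold lower (-0.91 ± 0.32 and -0.71 ± 0.43). A second Aif1 probe set differed by 0.00 with overlapping arrays. Of the vessel cell markers, Eng was called higher (1.04 ± 0.66), Tagln was at least 1.5-fold higher (0.81 ± 0.34) and 0 were lower. Over all genes, 0.822% were called higher. At least 1.5-fold higher and lower without overlap were 3.04% and 3.11% of all genes. In the satellite glia list Vim, the intermediate filament vimentin, read 3647 and 2940 in L4 against 4510 and 4027 in sham (-0.38 ± 0.14), with L5 at 6715 and 6161. Of 19 cytokines and chemokines, 14 lay below 0 (median -0.22), where 48.8% of all genes lay above 0. Among these 19, 0 were called and 0 were at least 1.5-fold apart without overlap. Their medians over same-numbered arrays alone were -0.07 and -0.05.

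Stress, matrix and other tissue lists were also centred near 0. Of 22 immediate early genes (median 0.09), Klf10, a zinc finger factor, was called lower (-1.34 ± 0.51) on the strength of its second L4 array, at 14.4 beside 106 on the first, and Junb was at least 1.5-fold higher (0.65 ± 0.68, dim). A second, dim Klf10 probe set differed by 0.37 with overlapping arrays. Of 20 heat shock genes (median -0.01), Hmox1, which breaks down haem, read 116 and 61.7 in L4 against 145 and 187 in sham (-0.86 ± 0.30). Of 47 extracellular matrix genes (median 0.05), 2 were at least 1.5-fold higher, Mmp14 (0.89 ± 0.30) and Thbs4 (0.78 ± 0.34), and 2 lower, Omd (-0.71 ± 0.39) and Pcolce (-0.61 ± 0.23), beside 3.04% and 3.11% of all genes. Mmp14, a membrane-bound matrix metalloproteinase, read 343 and 350 in L4 against 155 and 202 in sham, and at 28 days it differed by -0.18. A second Mmp14 probe set of like brightness differed by -0.07 at 50 days. For Pcolce a second probe set differed by 0.34 with overlapping arrays. The medians were -0.10 for 10 transduction and pacemaker channels, 0.09 for 7 markers of T and NK cells and -0.03 for 12 fat cell markers, with 0 members at least 1.5-fold apart without overlap.

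Of 8 tested MHC class II genes, 2 lay above 0 (median -0.12), beside 48.8% of all genes, 0 were called and 0 were at least 1.5-fold apart without overlap. Cd74, the invariant chain, read 453 and 763 in L4 against 776 and 938 in sham on its brightest probe set (-0.52 ± 0.20), yet its other 3 probe sets were above 0 (0.42, 0.04 and 0.11), and at 28 days the brightest differed by 1.12 in the other direction. Of 17 tested MHC class I and immunoproteasome genes (median -0.07), 8 lay above 0 and 0 were called. At least 1.5-fold without overlap, 1 was higher, Irf1 (0.70 ± 0.25), and 1 lower, RT1-CE16, beside 3.04% and 3.11% of all genes. RT1-CE16, an MHC class I gene, was at least 1.5-fold lower at 28 days too, while L5 differed from sham by -0.13 at 50 days. It read 796 and 988 in L4 against 1492 and 1472 in sham at 50 days (-0.73 ± 0.19), and 539 and 872 against 1167 and 1143 at 28 days (-0.74). The 16 complement genes had a median of -0.10, with C2 at least 1.5-fold higher and C1qa lower.

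Blood and muscle markers bear on how alike the dissections were. The 11 red cell and neutrophil markers had a median of 0.20, with 6 above 0, among them the red cell genes Alas2 (0.20), Ank1 (0.24) and Slc4a1 (0.44). The 3 haemoglobin genes, picked out after their values were seen, read lower in L4: Hba-a1 read 1883 and 2124 against 2879 and 2716 (-0.48 ± 0.13), Hbb 776 and 634 against 945 and 850 (-0.35 ± 0.13), and Hbb-b1 627 and 428 against 657 and 652 (-0.33 ± 0.16). The summed red cell and neutrophil signal was 4317 and 4298 in L4 and 5368 and 5027 in sham. Of the neutrophil partners, S100a8 was called higher (1.17 ± 0.38) and S100a9 was lower (-0.82 ± 0.40), both dim. A second dim S100a8 probe set differed by -0.24 with overlapping arrays. Skeletal muscle genes summed to 4808 and 5281 in L4 and 5230 and 5232 in sham, with a median of -0.03 beside 0.38 at 28 days. The part of blood content in the other differences was not tested.

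Genes of the respiratory chain and of the cytosolic ribosome gave medians slightly below 0 and few members apart. Of 67 oxidative phosphorylation genes, 21 lay above 0 (median -0.09), beside 48.8% of all genes. Of these 67, 1 was at least 1.5-fold higher and 1 lower without overlap, the lower one being Cox7b at 808 and 643 against 1115 and 1144 (-0.64 ± 0.16). Cox4i1 had a probe set called lower (-1.23 ± 0.37), but its brighter one read 4580 and 5173 against 5466 and 4830 and differed by -0.08. Of 52 cytosolic ribosomal protein genes, 15 lay above 0 (median -0.10), 1 was at least 1.5-fold higher and 2 lower, beside 3.04% and 3.11% of all genes, and their summed signal was 82848 and 81950 in L4 and 91116 and 88046 in sham. Rpl27a read 1278 and 1364 in L4 against 2473 and 2402 in sham (-0.88 ± 0.11), while at 28 days its difference was 0.09. Among 23 cholesterol synthesis genes (median -0.01), Srebf2, the transcription factor that drives the pathway, was called higher with 1031 and 1368 against 597 and 573 (1.00 ± 0.14). Its second probe set differed by 0.09, and at 28 days the first differed by 0.04. The segmental list of Hox and related genes, which bears on spinal level, had a median of -0.06, with 8 of 11 below 0. Its member Tbx3 read 215 and 142 in L4 against 256 and 252 in sham (-0.49 ± 0.20) and differed by -0.58 at 28 days.

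**Figure D3:**
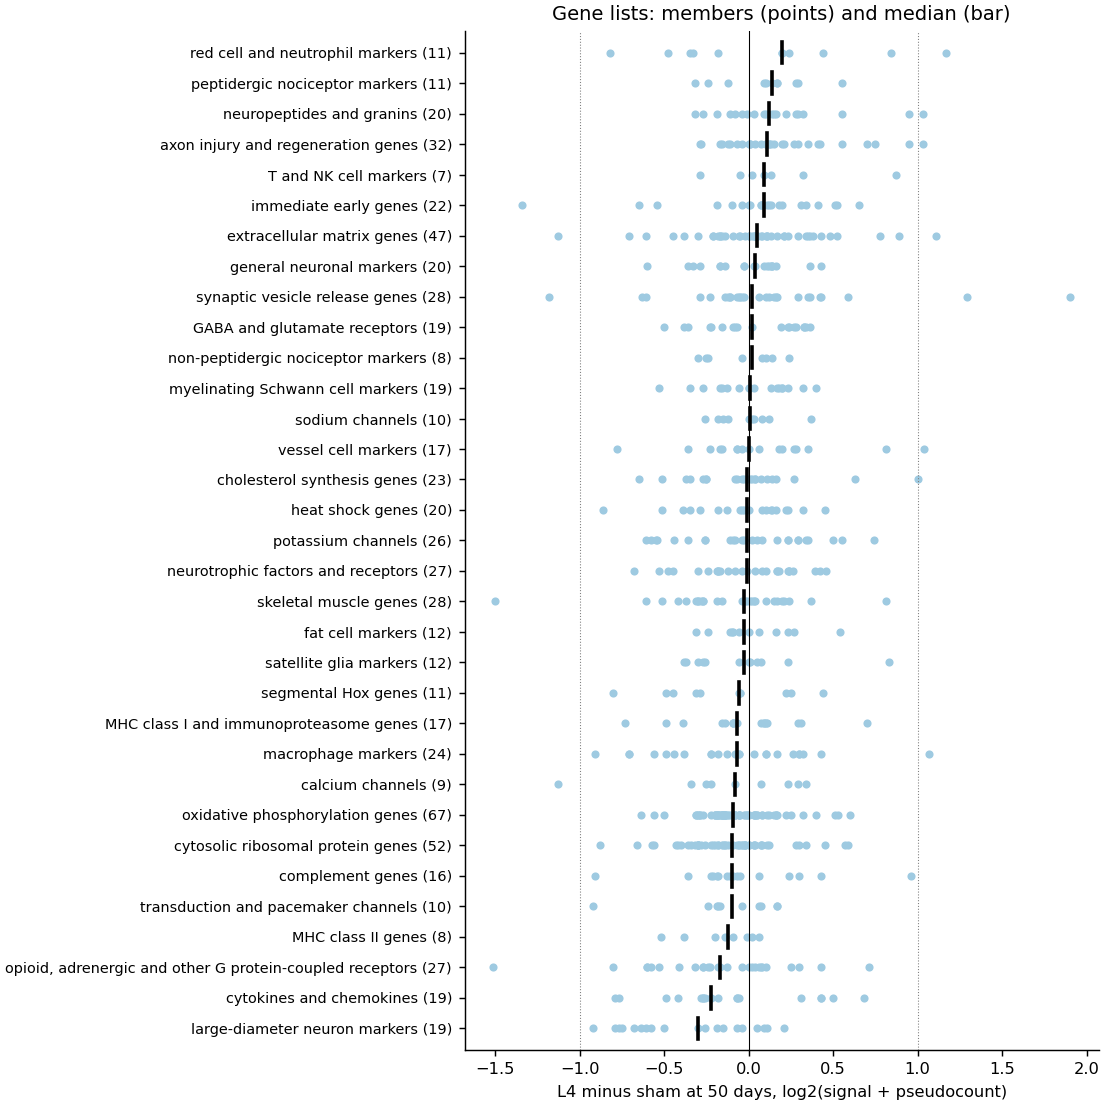
Differences between L4 and sham at 50 days (log2 of signal plus pseudocount) for the tested members of 33 gene lists, 1 point per gene by its brightest probe set, with the median as a bar and the number tested in parentheses. The medians run from -0.30 for large-diameter neuron markers to 0.20 for red cell and neutrophil markers, and dotted lines mark a 2-fold difference.

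The largest differences, taken by size among called probe sets with 1 gene, were mainly in dim probe sets. The highest was Nucks1, a nuclear DNA-binding protein, with 125 and 155 in L4 against 13.9 and 26.3 in sham (2.07 ± 0.76). The L5 arrays read 137 and 136, so at 50 days the sham arrays stood apart from both ligated-rat ganglia, and a brighter Nucks1 probe set differed by -0.19. At 28 days the arrays of each pool disagreed: 120 and 26.9 in L4, 148 and 27.6 in sham, 20.1 and 187 in L5. The L4 difference there was -0.15. Cyp27b1, the vitamin D-activating enzyme, also had sham apart at 50 days, with 68.2 and 53.8 in L4, 84.1 and 105 in L5, and 2.6 and 8.3 in sham (2.03 ± 0.43 for L4).

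Dmtn, an actin-bundling protein, read 245 and 271 in L4 against 53.4 and 51.8 in sham, the tightest of this set by technical SE (1.97 ± 0.24). L5 was near sham at 55.2 and 57.4, and at 28 days L4 and sham overlapped. Cyp21a1, a steroid hydroxylase, and Syt5, a synaptotagmin, both differed by 1.90, and the aminopeptidase Rnpep by 1.89. Qng1 (1.77), Pitpnb (1.64, with a brighter probe set at -0.04) and the signalling adaptor Traf4 (1.62) followed. Vegfa, the vascular growth factor, read 135 and 182 against 40.4 and 42.7 (1.64 ± 0.37), while its brighter probe set differed by -0.08.

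On the lower side Lrwd1, a partner of the replication origin complex, read 16.6 and 25.7 in L4 against 132 and 90.4 in sham (-1.86 ± 0.40). The cell cycle gene Cdca3 (-1.80), the co-chaperone Ttc4 (-1.75), the mitochondrial thioredoxin reductase Txnrd2 (-1.74) and Ddah1, which degrades an inhibitor of nitric oxide synthesis (-1.72, with a brighter probe set at 0.16), came after it. Muc4 (-1.59), the natural killer receptor Klrc1 (-1.55), P-selectin or Selp (-1.51) and Mybph (-1.50) were also among the 12. The second Txnrd2 probe set differed by -0.36. Mybph rested on its second L4 array, at 5.1 beside 70.9 on the first, and without it the difference was -0.39. Klrc1 differed by -1.06 without its second L4 array, and on the higher side Syt5 by 0.92 without the second sham array.

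**Figure D4:**
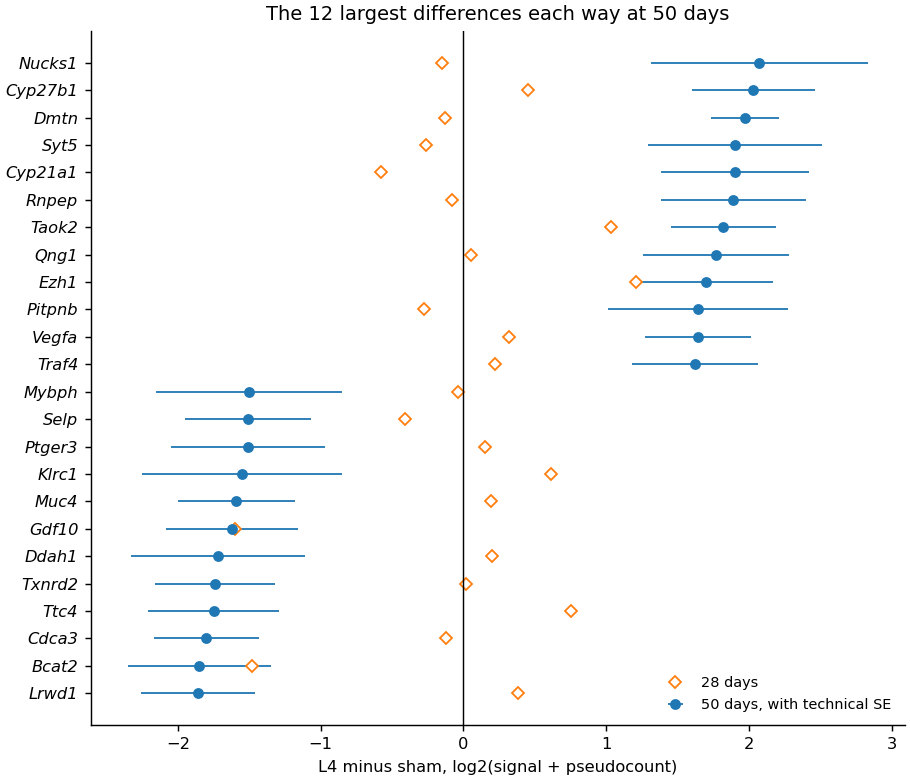
The 12 largest differences each way between L4 and sham among called probe sets with 1 gene, on the log2 scale: filled points are 50 days with the technical SE as bars, open diamonds the same probe sets at 28 days. Taok2, Ezh1, Bcat2 and Gdf10 stay at least 2-fold apart at 28 days, and the others lie within 0.75 of 0 there.

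Few of the calls came back at 28 days. Of the 158 probe sets higher at 50 days, 6 were called higher at 28 days, which is 3.80% of them and 3.61% of the 166 called higher at 28 days (1.06% of those tested). Of the 138 lower, 7 were called lower again, 5.07% of them and 7.37% of the 95 called lower at 28 days (0.604%). In the opposite direction 5 and 3 were called. On chip B, 2 higher and 3 lower calls recurred, and 4 and 1 without the sham array of doubtful day. In all, 261 probe sets were called at 28 days (1.66%). On the looser measure of 1.5-fold without overlap, 24 of the 158 (15.2%) were higher at 28 days beside 4.52% of all tested probe sets, and 16 of the 138 (11.6%) were lower beside 3.66%. The shares on the same side of 0 were 50.6% and 52.2%, beside 49.0% and 51.0% of all probe sets. Across all tested probe sets, which share arrays and are not replicates, the differences of both days correlated at r = 0.0141.

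Against the arrays of 28 days, 84 of the 158 higher probe sets (53.2%) had both L4 arrays of 50 days above both sham arrays of 28 days, and 68 of the 138 lower ones (49.3%) had both below. In 60 of the 158 it was the sham arrays of 50 days that lay under all 4 L4 and sham arrays of 28 days, and in 55 the L4 arrays lay above all 4. Among the 138 lower probe sets the sham arrays stood apart in 54 and the L4 arrays in 47. The same shares over all tested probe sets were not taken. These probe sets were chosen by the distance between their 50-day pools, so the counts cannot tell which pool moved. The chip B array of doubtful day is among the sham arrays of 28 days.

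Some genes kept their side at both days, and they were ranked by the smaller of the 2 differences. Taok2, a kinase of the stress-activated MAP kinase pathway, was the brightest of the higher ones. It read 743 and 520 in L4 against 171 and 155 in sham at 50 days (1.82 ± 0.37), and 350 and 489 against 124 and 298 at 28 days (1.03). The reading of 124 comes from the chip B array with the doubtful day, and without it the difference at 28 days was 0.45. The L5 arrays of 50 days were near sham at 215 and 165. Ezh1, a histone methyltransferase of the Polycomb group, read 152 and 109 against 26.3 and 25.2 (1.70 ± 0.47) and differed by 1.21 at 28 days. A brighter Ezh1 probe set differed by 0.09 and 0.13.

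Also higher at both days were Eefsec (1.16 and 1.18), the mitochondrial channel Vdac1 (1.00 and 1.67), the tubulin Tuba1a (0.98 and 1.58), Hmgxb4 (1.02 and 0.94), the motor protein Kif1c (1.35 and 0.93) and Slc12a9 (1.04 and 0.93). Other probe sets did not all follow: a brighter Vdac1 one differed by -0.52 at 50 days and another by 0.37, and the other Kif1c ones by -0.36 and -0.24. Without the doubtful sham array the 28-day values of the chip B genes were 1.15 for Eefsec, 1.40 for Tuba1a, 0.40 for Kif1c, 0.77 for Slc12a9, -1.90 for Tcof1 and -0.75 for Hscb. Of the genes lower at both days, Bcat2, a mitochondrial enzyme of branched-chain amino acid breakdown, read 35.0 and 38.8 against 250 and 109 (-1.85 ± 0.50) and differed by -1.48 at 28 days. Gdf10, a ligand of the BMP family, read 17.6 and 11.8 against 91.1 and 54.8 (-1.62 ± 0.46) and by -1.60 at 28 days. Tcof1 (-1.06 and -1.86), the matrix cross-linking enzyme Loxl1 (-0.98 and -0.99), the carbonic anhydrase Car4 (-0.99 and -0.97), Bpifa2f (-1.35 and -0.95), Hscb (-1.41 and -0.93) and Dnm3 (-0.96 and -0.92) completed the set. A brighter Tcof1 probe set was higher in L4 at 50 days (0.76), while both Loxl1 and both Car4 probe sets were below 0. Single L4 arrays carried some of these values: without 1 of them the 50-day difference was 0.37 for Eefsec, -0.39 for Bpifa2f and -0.13 for Dnm3. In all, 105 of the 15721 tested probe sets were at least 1.5-fold apart in 1 direction at both days, 64 higher and 41 lower. On single days the shares of all tested probe sets were 3.63% higher and 3.43% lower at 50 days. At 28 days they were 4.52% and 3.66%.

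**Figure D5:**
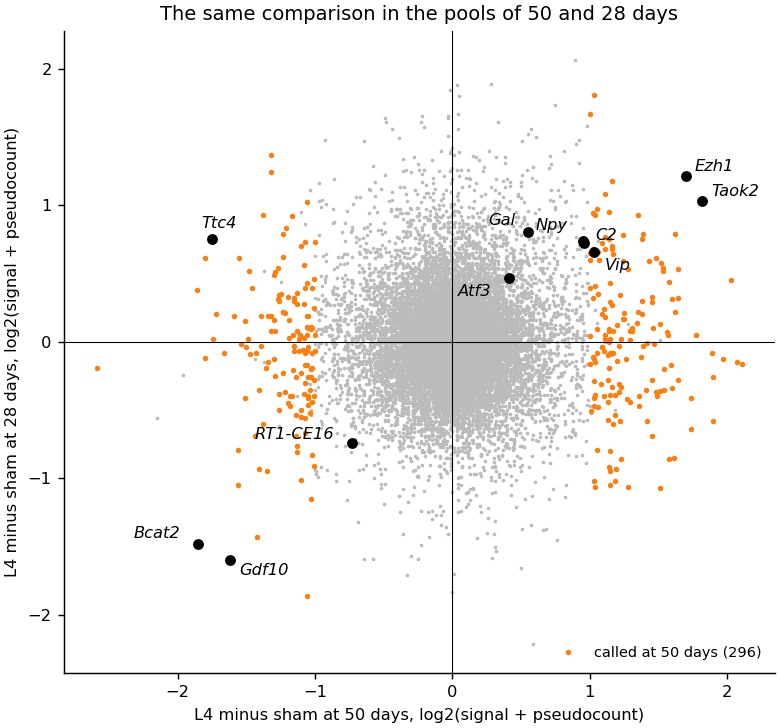
Difference between L4 and sham at 50 days (horizontal) and at 28 days (vertical) for every tested probe set, both as log2 of signal plus pseudocount. The 296 probe sets called at 50 days (orange) lie about as often above as below 0 at 28 days; black points name genes described in the text.

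Where a gene had several probe sets, the called one was seldom matched. For the 114 genes called higher, 56 had other tested probe sets, 86 in all, of which 43 (50%) were above 0 and 1 was at least 1.5-fold higher. For the 101 genes called lower, 64 other probe sets of 43 genes had 30 (46.9%) below 0 and 2 at least 1.5-fold lower. Of all tested probe sets, 50.1% were above 0 and 49.9% below. At least 1.5-fold higher and lower without overlap were 3.63% and 3.43% of them. Probe sets of a gene can read different transcript ends, and these were not told apart.

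In the 2 brightest bins, where 25 probe sets were called, 19 carried 1 gene name; the following were picked after their values had been seen. Lin7c, a synaptic scaffold protein, read 794 and 687 in L4 against 258 and 224 in sham (1.54 ± 0.19), with L5 at 0.44 above sham, and at 28 days the L4 difference was -0.35. Aph1a, a gamma-secretase subunit, read 558 and 374 against 126 and 158 (1.58 ± 0.35), and differed by 0.44 with overlapping arrays at 28 days. Kctd13 read 1016 and 1098 against 2572 and 1875 (-1.05 ± 0.17) and differed by -0.46 at 28 days. Slc4a4, the sodium bicarbonate cotransporter, read 394 and 179 against 631 and 635 (-1.19 ± 0.37), and differed by 0.03 at 28 days. Of these 25, 16 lay on the same side at 28 days, beside 49.9% of all tested probe sets. At least 1.5-fold apart there in the same direction were 4. Of all tested probe sets, 4.52% were that much higher and 3.66% lower at 28 days. Mean signal includes the L5 arrays: Vip is among the 25 with 1154 and 903 in L5 at 28 days.

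The only fit with pools as replicates took both days together, with 2 residual degrees of freedom. In it, limma with Benjamini-Hochberg adjustment called 0 probe sets for L4 against sham (0% of 15721), with 426 at an unadjusted p under 0.05 and a lowest adjusted p of 1. Taok2 had a difference of 1.43 ± 0.22 (SE over pools, adjusted p of 1 by limma), RT1-CE16 -0.74 ± 0.18, Npy 0.85 ± 0.22 and Vip 0.85 ± 0.24, all with an adjusted p of 1 in limma. The Taok2 value includes the sham array of doubtful day. Leaving out 1 pool gave 3 calls without L4 of 28 days, 7 without L4 of 50 days, 10 and 9 without L5 of 28 and 50 days, 0 without sham of 28 days and 1 without sham of 50 days. A call count of 0 in this fit does not show that the ganglia were alike.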

How the data were processed

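Total RNA of dorsal root ganglia was hybridised to Affymetrix rat U34 chips A, B and C. Each deposited value is the intensity of a probe set, not log-transformed. The submitters' processing notes name MAS5 and give no version. No detection calls were used, and the number of arrays limits the precision.

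Signals were scaled to 1 trimmed mean per chip type (2% off each end), given a pseudocount at the 20th percentile of the chip type (chip A 12.8, chip B 17.7, chip C 20.2) and taken to log2, which shrinks the differences of dim probe sets. Controls and probe sets below the 40th percentile of mean signal were left out (15721 of 26379 remained). Gene names came from the platform annotation, checked against a RefSeq table of assembly GRCr8; 11770 tested probe sets had 1 gene. Groups came from array titles, and each pool was the mean of its 2 arrays. limma 3.58.1 in R 4.3.3 (lmFit, eBayes with intensity trend) gave the technical SE from 12 arrays per chip type, and the fit of condition and day over 6 pools; both were tested on simulated data. Tables and figures used Python 3.11.15.

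The text names the 12 largest called genes each way, 8 each way that held at both days, up to 4 per gene list and 20 genes named in any case. The genes, lists, rules and alternatives were chosen with earlier results of these data known. The brightness bins, the probe sets taken from L5, the other probe sets of called genes and the values without the sham array of doubtful day were added after seeing the data.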

Additional observations from a re-analysis of the deposited data

Results flagged for a closer look

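Both genes below had L4 arrays on 1 side of the sham arrays at 50 days and on the other side at 28 days, at least 1.5-fold apart each time; the difference between the days was not tested. Ttc4 was lower in L4 at 50 days (-1.75; L4 21.9 and 19.5, sham 97.7 and 102) and higher at 28 days (0.75; L4 91.4 and 60.9, sham 53.9 and 27.9). Eng, the endothelial co-receptor endoglin, was higher at 50 days (1.04; L4 95.0 and 131, sham 86.8 and 20.5) and lower at 28 days (-1.06; L4 100 and 22.8, sham 144 and 111). The 2 arrays of a pool differed several-fold in 2 of these 4 Eng pairs.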

How the results depend on the processing

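The main count of 296 called probe sets (158 higher, 138 lower) became 73 (48 and 25) with the pseudocount at the 40th percentile, 705 (364 and 341) with no filter on dim probe sets, 80 (43 and 37) with the filter at the 60th percentile, 1110 (571 and 539) at 1.5-fold and 32 (21 and 11) at 3-fold. Leaving out 1 of the 4 arrays gave 560 to 738 calls, 219 to 385 higher and 219 to 400 lower, since a lone array is not averaged. Quantile normalization, median centring, scaling by hybridisation controls, the lower pseudocount, the ratio of mean signals and dropping the overlap condition stayed within 1.5 times (243 to 419). The 13 calls shared by both days became 33 and 2 with the lower and higher pseudocount, 24 and 4 with no filter and the stricter filter, 28 with hybridisation controls (25 higher, because that scaling moved the median of all probe sets at 28 days to 0.37), 105 at 1.5-fold and 1 at 3-fold. The fit over both days called 6 with hybridisation controls, whose median difference was 0.2016, and 0 to 10 when 1 pool was left out. Same-numbered arrays were not paired in the data (correlations of 0.0292, 0.0129 and -0.0719 on A, B and C), and asking both same-numbered differences to go the same way, as a replicate block, gave 308 calls (162 and 146). Of 1120 values of the 112 named genes under other settings, 98 moved by more than the technical SD and 0 changed sign among those at least 1.5-fold apart. Of 396 list medians, 116 moved by more than the SD between same-numbered arrays. The median of large-diameter neuron markers stayed between -0.41 and -0.14, of injury genes between 0.07 and 0.23, of oxidative phosphorylation genes between -0.11 and -0.06 and of ribosomal genes between -0.14 and -0.07; that of red cell and neutrophil markers ran from -0.33 to 0.21.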
